A study of Mus musculus with 24 samples.

Results

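Gene expression in whole kidney of Glo1+/- mice, which carry 1 disrupted copy of Glo1, was set against that of wild-type (WT) mice. The comparison rests on the 6 arrays titled as kidney, 3 Glo1+/- and 3 WT, of 24 arrays in a study that also holds gonadal adipose tissue, liver and aorta. All annotated genes of these arrays were examined: 25697 probes on an Illumina expression bead array, of which 23978 name 1 of 16593 genes. Per the labels all 6 samples came from C57BL/6J females of 36 weeks kept on standard chow. By the same labels the Glo1+/- animals came from a line re-derived by embryo transfer into a WT mother. The mutation is a germline one, so every cell type of the kidney carries it, and no other allele or agent is named for either genotype. The labels do not say whether arrays of a group came from separate animals, so the p-values below measure only the spread between these samples, which may be technical.

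Glo1 encodes glyoxalase 1, which together with Hagh turns methylglyoxal, a reactive by-product of glycolysis, into lactate by way of a glutathione adduct. Methylglyoxal that escapes this route modifies proteins and DNA and is a source of advanced glycation end products (AGE). The kidney draws much of its energy from fatty acids burned in the mitochondria and peroxisomes of the proximal tubule, a programme under control of the nuclear receptor PPAR alpha, and the proximal tubule also makes glucose and ammonia.

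The tissue label held on its markers. Slc34a1, the phosphate transporter of the proximal tubule, read 14.83, 14.89 and 14.91 in WT and 14.93, 14.93 and 14.88 in Glo1+/-. Umod, the uromodulin of the thick ascending limb, read 14.56, 14.62 and 14.36 in WT and 14.52, 14.53 and 14.61 in Glo1+/- on its brighter probe. All values here are on the deposited log2 scale, whose floor lies near 8, and a difference of 1 is a 2-fold change. Xist and Eif2s3y went against the labelled sex. Xist is the RNA that silences an X chromosome in female cells. It stayed between 8.09 and 8.25 on both of its probes in all 6 kidney arrays. Y-linked Eif2s3y read 10.33 to 10.74. Other Y-linked genes were less clear. Kdm5d (mean over the 6 arrays 8.53) and Uty (8.37) lay little above the floor, and Usp9y, Zfy1 and Zfy2 at it. Kidney genes listed as sex-biased were mixed. Male-biased Kap had a mean of 14.57, but male-biased Slco1a1 lay at the floor. Female-biased Slc22a19 had a mean of 11.02. Both genotypes were alike in Xist and Eif2s3y.

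Single kidney arrays carried transcripts of other tissues, and they were not spread evenly over the genotypes. The hepatocyte list (16 of 24 genes above the median of all probes) had a mean level of 9.67 in WT 1 against 8.70 to 8.86 in the other 5 arrays, with apolipoprotein Apoa2 at 13.17 against 9.59 to 10.32. The adipocyte and brown fat list (13 of 19) stood at 9.16 in WT 2 and 9.11 in WT 3 against 8.63 to 8.70 elsewhere. Adipoq, the fat hormone adiponectin, read 9.48 and 10.57 there against 8.11 to 8.66, and Cox8b, a respiratory subunit of brown fat, 10.85 in WT 2. The urothelium and papilla list (11 of 16) stood at 8.85 in WT 2, 8.72 in Glo1+/- 2 and 8.60 in Glo1+/- 3 against 8.30 to 8.32 in the other 3 arrays. The adrenal list lay at the floor (8.13 to 8.16). As in any whole tissue, fewer cells of a type and less RNA per cell cannot be told apart. Slides divided the genotypes in part: slide 2 held the 3 WT arrays and Glo1+/- 1, and slide 3 held Glo1+/- 2 and 3. A value with slide as a block thus sets Glo1+/- 1 alone against the 3 WT arrays, and equals the difference within slide 2.

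**Figure D1:**
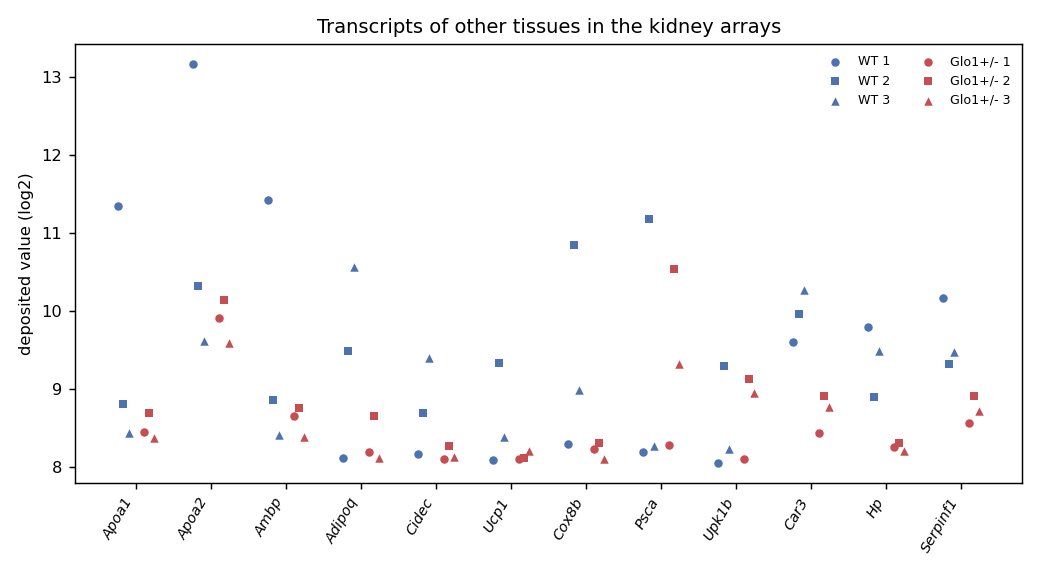
Deposited log2 values (vertical axis) of transcripts of other tissues and of 3 genes lower in Glo1+/- (Car3, Hp, Serpinf1) in each of the 6 kidney arrays. Blue marks are WT and red marks Glo1+/-, with a shape for each replicate. Apoa1, Apoa2 and Ambp stand out in WT 1, fat genes in WT 2 and WT 3, and Psca and Upk1b in WT 2, Glo1+/- 2 and Glo1+/- 3.

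Over all probes 98 differed between the genotypes at an adjusted p under 0.05, which is 0.381% of those tested. Of these 53 were higher in Glo1+/- (0.206%) and 45 lower (0.175%), for 48 and 36 genes, and 5 had no gene name. In all 98 the 3 Glo1+/- values lay on one side of the 3 WT values, and in 9 of them the difference was at least 1 on the log2 scale. At an unadjusted p under 0.05 there were 2452 probes, 9.54% of all. The lists below are read on genes above the median of all probes, where that share was not counted. List counts at an unadjusted p are thus descriptions only. The genes higher in Glo1+/- were led by enzymes of lipid, glucose and drug metabolism, and those lower by the transcription factors Egr1 and Bcl6, the carbonic anhydrase Car3, haptoglobin (Hp) and the transferrin receptor (Tfrc). With slide as a block all 98 kept their sign and 14 stayed called, among 20 in that fit: probes of Cyp4a31, Cyp2d12, Acot3, Nr1h4, Cpt2, Lgals4, Spc25, Acaa1b, Acot1, Lpl, Bcl6, Car3 and Egr1 and 1 unnamed probe. The other called genes described below all lost their call there. The median ratio of the change with slide to the change without was 1.02. As the groups of all 98 did not overlap, Glo1+/- 1 alone already lay on the called side of WT. The kept signs were thus fixed in advance and say nothing on slide. Leaving out single arrays gave 46, 32 and 108 called probes without WT 1, 2 and 3, and 41, 46 and 19 without Glo1+/- 1, 2 and 3. Of the 98, 11 were called in all 6 of these fits: probes of Cyp2d12, Nr1h4, Cpt2, Lgals4, Tfrc (2), Itgb6 (2), Car3, Egr1 and a probe without a gene name. Each of the other called probes lost its call without at least 1 array.

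**Figure D2:**
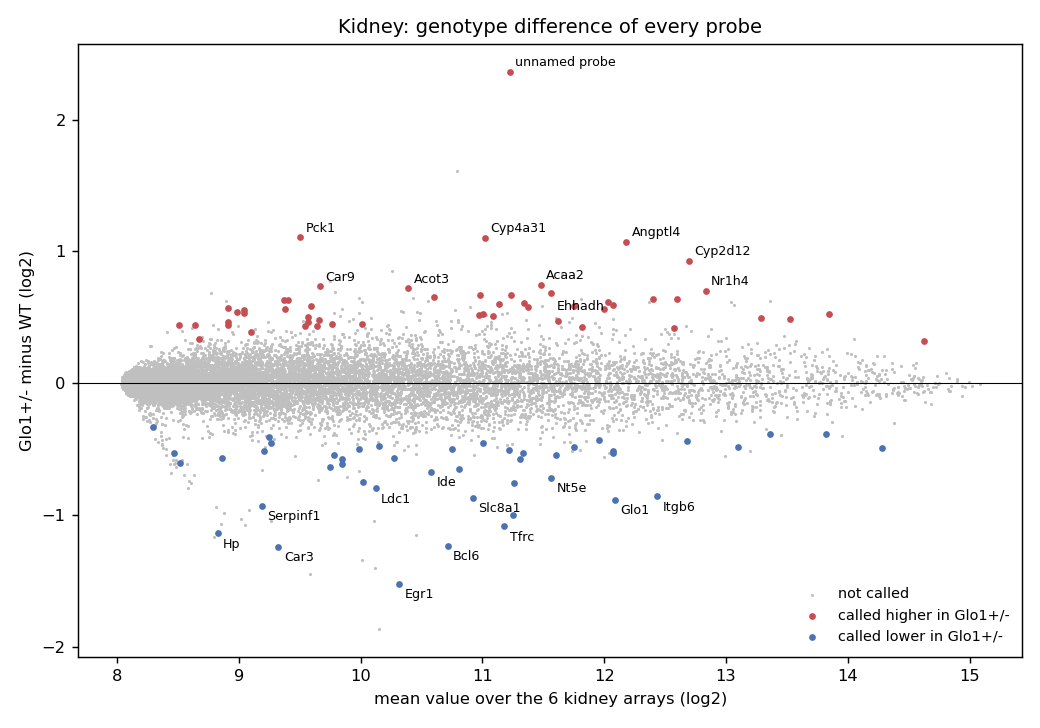
Difference between Glo1+/- and WT kidney (vertical axis, log2) against the mean value over the 6 kidney arrays (horizontal axis, log2), 1 point for each of 25697 probes. The 53 probes called higher are red and the 45 called lower blue. The unnamed probe, Pck1, Cyp4a31 and Angptl4 are the called probes with the largest rises, and Egr1, Car3 and Bcl6 those with the largest falls.

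Glo1, the deleted gene, was lower in each Glo1+/- array. It read 12.51, 12.62 and 12.45 in WT and 11.56, 11.31 and 12.06 in Glo1+/-, with Glo1+/- 3 the closest to WT and no overlap. It fell by 0.88 ± 0.15 (standard error, n = 3 per group, adjusted p = 0.0223), to 0.542 of the WT level. With slide as a block the change was -0.96 (adjusted p = 0.206), and the call was also lost without WT 1 (-0.89, 0.0540), WT 2 (-0.83, 0.0866), Glo1+/- 1 (-0.84, 0.0880) or Glo1+/- 2 (-0.71, 0.0657). Glo1 was the only called gene among 21 measured members of the glyoxalase and dicarbonyl list, beside 0.368% of all measured genes called lower. A measured gene is one whose brightest probe lies above the median of all probes (8.23). Of those 21, 15 had a higher and 6 a lower mean in Glo1+/-, with a median of 0.08, beside a median of -0.003 over all 8976 measured genes. Hagh, the partner enzyme glyoxalase 2, read 11.90 to 12.04 over all 6 arrays (-0.00 ± 0.08, adjusted p = 0.996). Park7, a protein with reported deglycase activity, changed by -0.09 ± 0.06 (adjusted p = 0.643). Aldh1a7, an aldehyde dehydrogenase, stood at 0.39 ± 0.09 without passing (adjusted p = 0.133). Neighbouring genes were examined because a knockout allele can carry flanking DNA of another strain: of the 15 genes on each side of Glo1, 14 had a probe above the median and 0 were called, and the largest change among them was 0.21 (smallest adjusted p = 0.460). The AGE receptor list had 0 of 11 measured genes called by limma. At an unadjusted p under 0.05, 1 was higher and 3 lower, beside 9.54% of all probes in either direction.

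Genes of fatty acid oxidation and PPAR alpha targets were higher in Glo1+/- kidney. Of 57 listed genes 49 were on the array and 43 were measured. Of the 43, 37 had a higher mean in Glo1+/- and 12 were called, all higher, beside 0.490% of all measured genes called higher. In 29 of the 43 the groups did not overlap upward, beside 9.55% of all measured genes, and in 0 downward. The list and its members were chosen with earlier results of these data known, so these counts are descriptions only. The median change was 0.33 against -0.003 over all measured genes, and 0.42 with slide as a block, where 7 of the list were called. The mean level of the 49 genes was 10.89, 10.93 and 10.97 in WT and 11.35, 11.17 and 11.24 in Glo1+/-. Glo1+/- 1 had the highest level and no Glo1+/- array reached down to WT. The count of called members was 5, 2 and 9 without WT 1, 2 and 3, and 5, 9 and 3 without Glo1+/- 1, 2 and 3.

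Among the lipid hydroxylases and target genes, Cyp4a31, a fatty acid omega-hydroxylase, read 10.48, 10.66 and 10.27 in WT and 11.94, 11.22 and 11.56 in Glo1+/-. It rose by 1.10 ± 0.15, 2.15-fold (adjusted p = 0.0111), and by 1.47 with slide as a block (adjusted p = 0.0165). Cyp4a14, of the same family, read 10.52, 9.97 and 9.46 in WT and 12.62, 10.79 and 11.38 in Glo1+/-. It differed by 1.61 ± 0.35 without passing (adjusted p = 0.0827), but by 2.64 with slide as a block, where it passed (adjusted p = 0.0165). Both groups were widely spread, and Glo1+/- 1 was the highest array for both hydroxylases. Its paralogs are close in sequence, so cross-hybridisation within the family cannot be told apart from expression. Angptl4, a secreted inhibitor of lipoprotein lipase and a PPAR target, read 11.13, 11.72 and 12.09 in WT and 12.76, 12.76 and 12.64 in Glo1+/-. It rose by 1.07 ± 0.17 (adjusted p = 0.0198; 1.11 and 0.231 with slide as a block). WT spanned a range near the size of the change, while the Glo1+/- arrays lay close together. Lpl, lipoprotein lipase itself, moved the other way, from 14.57, 14.52 and 14.48 to 13.90, 13.98 and 14.21. It fell by 0.49 ± 0.08 (adjusted p = 0.0147; -0.62 and 0.0406 with slide as a block). Plin2, which coats lipid droplets, rose by 0.44 ± 0.08 (adjusted p = 0.0475; 0.49 and 0.261 with slide as a block).

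Genes of the mitochondrial pathway followed. Cpt2, the carnitine palmitoyltransferase of the inner membrane, read 12.22, 12.24 and 12.38 in WT and 13.07, 12.89 and 12.81 in Glo1+/-. The smallest Glo1+/- value lay well above the largest WT value, and Cpt2 rose by 0.64 ± 0.09 (adjusted p = 0.0111; 0.78 and 0.0293 with slide as a block). Slc25a20, the carrier that brings acylcarnitines to it, had 2 probes above the floor: the dimmer one rose by 0.63 ± 0.10 (adjusted p = 0.0199), and the brighter one stood at 0.62 ± 0.12 (adjusted p = 0.0508). Acaa2, the last thiolase of the spiral, had 4 probes with changes of 0.52 to 0.75, of which 2 passed, and its brightest did not (0.64 ± 0.16, adjusted p = 0.148). Eci1 (0.62 ± 0.11) and Eci2 (0.61 ± 0.09), isomerases for unsaturated fatty acids, and Etfdh (0.43 ± 0.08), which hands the electrons on to ubiquinone, rose. Acyl-CoA dehydrogenases had positive differences without a call, with Acadl at 0.44 ± 0.10 (adjusted p = 0.106), Acadvl at 0.38 ± 0.08 (0.0752) and Acadm at 0.14 ± 0.06 (0.501).

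Peroxisomal enzymes and thioesterases were called as well. Ehhadh, the bifunctional enzyme of peroxisomal beta-oxidation, read 11.20, 11.04 and 11.43 in WT and 11.74, 12.05 and 11.93 in Glo1+/-, a rise of 0.68 ± 0.11 (adjusted p = 0.0223; 0.51 and 0.388 with slide as a block). Acaa1b, a peroxisomal thiolase, read 13.66, 13.49 and 13.60 in WT and 14.25, 14.03 and 14.05 in Glo1+/-, a rise of 0.52 ± 0.08 (adjusted p = 0.0116; 0.67 and 0.0292). Neither gene had overlapping groups. Acot3, an acyl-CoA thioesterase, rose by 0.72 ± 0.12 (adjusted p = 0.0279), from 10.07, 9.98 and 10.04 to 11.04, 10.75 and 10.47. Acot12 (0.59 ± 0.11) and Acot1 (0.49 ± 0.10) of the same enzyme group rose too, as did Pxmp4, a peroxisomal membrane protein outside the list (0.60, adjusted p = 0.0439). No call was made for the regulators. Ppara was near the floor, at 8.30, 8.29 and 8.37 in WT and 8.33, 8.32 and 8.24 in Glo1+/-, where a change could not be read. Ppargc1a, its coactivator, stood at -0.13 ± 0.10 (adjusted p = 0.711). Cidec, a fat droplet protein, had the lowest value of the list (-0.58 ± 0.20, adjusted p = 0.348), with 8.69 and 9.39 in WT 2 and WT 3, the arrays with adipocyte transcripts, and 8.10 to 8.27 in the other 4.

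**Figure D3:**
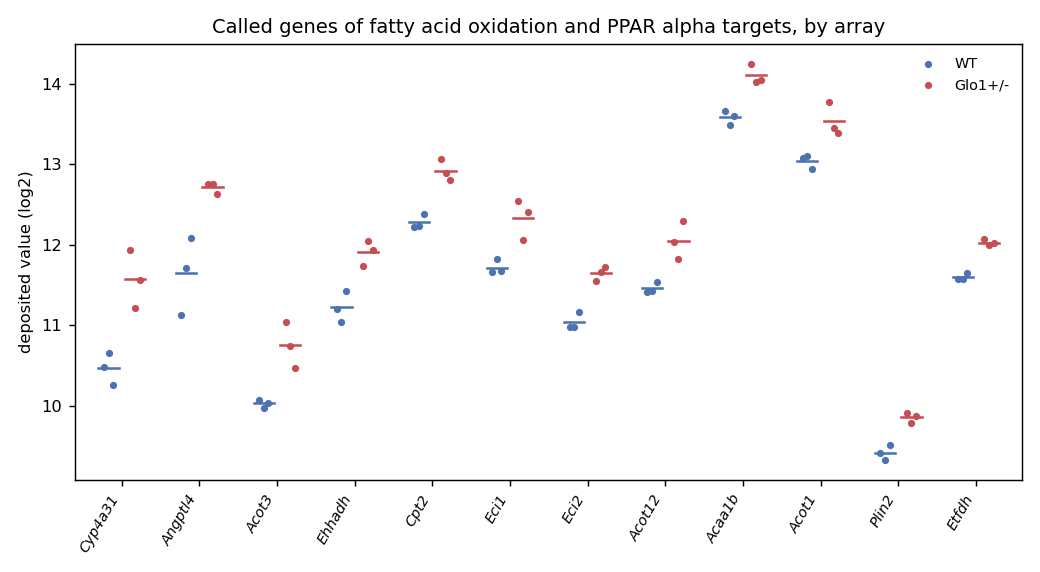
Deposited log2 values (vertical axis) of the 12 called genes of the fatty acid oxidation and PPAR alpha list, ordered by the size of the change. Each point is 1 array, blue for WT and red for Glo1+/-, and each bar is the mean of 3 arrays. In none of the 12 did the genotypes overlap.

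The PPAR alpha and RXR pair is known to bind direct repeat 1, here a pair of AGGTCA with 1 base between them. Searched on both strands, it was in 0.0396% of 32851 promoters (250 bases before to 50 after the gene start, RefSeq, GRCm38.p6) and in 0 of the 32 measured list members with a promoter in the table, which says only that these letters are not in this window.

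Of the glucose and amino acid enzymes, Pck1 and Hpd rose. Pck1, the phosphoenolpyruvate carboxykinase that starts gluconeogenesis, read 8.68, 8.68 and 9.49 in WT and 10.10, 10.19 and 9.90 in Glo1+/-. WT 3 stood nearest to the Glo1+/- arrays, and Pck1 rose by 1.11 ± 0.17, 2.16-fold (adjusted p = 0.0147; 1.15 and 0.206 with slide as a block). It was the only call among 21 measured genes of gluconeogenesis and glucose transport, beside 0.490% of all measured genes called higher. Of the 21, 17 had a higher mean (median 0.17) and 9 did not overlap upward, beside 9.55% of all measured genes. Fbp1, fructose bisphosphatase, stood at 0.32 ± 0.07 (adjusted p = 0.0653). Of the genes of amino acid breakdown and the urea cycle, with 29 higher and 16 lower means and a median of 0.05, 1 of 45 was called, Hpd, which acts in tyrosine breakdown, from 9.42, 9.21 and 9.26 to 10.01, 9.92 and 9.72 (0.59 ± 0.10, adjusted p = 0.0212; 0.71 and 0.0867 with slide as a block). Outside the list, Ftcd, of histidine breakdown, rose by 0.66 ± 0.12 (adjusted p = 0.0342) and Etnppl, the phosphoethanolamine lyase, by 0.56 ± 0.08 and 0.54 ± 0.08 on 2 probes. Bbox1, of carnitine synthesis, rose by 0.44 ± 0.08 (adjusted p = 0.0434). Aacs, which activates acetoacetate for lipid synthesis, rose by 0.64 ± 0.11 (adjusted p = 0.0279). The lipid synthesis lists themselves had 0 of 30 (fatty acids and triglycerides) and 0 of 20 genes (cholesterol) called by limma. At an unadjusted p under 0.05, 7 and 5 were lower and 2 and 0 higher, beside 9.54% of all probes in either direction. In the cholesterol list 18 of 20 means were lower in Glo1+/- (median -0.08), with Idi1, the isopentenyl diphosphate isomerase, at -0.35 ± 0.07 (adjusted p = 0.0612).

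Drug-metabolising and nuclear receptor genes held the kidney change with the smallest p. Cyp2d12, a cytochrome P450 of the Cyp2d group, read 12.11, 12.31 and 12.28 in WT and 13.14, 13.15 and 13.19 in Glo1+/-. The Glo1+/- arrays lay close together, and the rise of 0.93 ± 0.08, 1.90-fold, had an adjusted p of 0.000596 (0.91 and 0.0189 with slide as a block). Cyp2d9, a near relative, rose by 0.49 ± 0.07 (adjusted p = 0.0111; 0.43 and 0.190 with slide as a block). Both belong to a tight multigene family, so probe sharing between paralogs cannot be told apart from expression. They were the 2 calls among 41 measured genes of the drug-metabolising list, beside 0.490% of all measured genes called higher, and its median was 0.03. Nr1h4, the bile acid receptor FXR, read 12.55, 12.36 and 12.53 in WT and 13.28, 13.08 and 13.19 in Glo1+/-, a rise of 0.70 ± 0.08 (adjusted p = 0.00559; 0.80 and 0.0293 with slide as a block). Rdh16, a retinol dehydrogenase, rose by 0.67 ± 0.10 (adjusted p = 0.0147; 0.49 and 0.294). Of 19 measured glutathione S-transferases 2 were called, both higher, beside the same 0.490%: Gsta2 (10.77, 11.11 and 10.82 in WT, 11.62, 11.49 and 11.59 in Glo1+/-, 0.67 ± 0.10) and Gstt2 (0.59 ± 0.09), each with an adjusted p of 0.0147. In the wider NRF2 and glutathione list 0 of 37 genes were called. At an unadjusted p under 0.05, 6 were higher and 0 lower, beside 9.54% of all probes in either direction. Oplah, of glutathione turnover, stood at 0.58 ± 0.11 (adjusted p = 0.0521). Car9, a hypoxia-inducible carbonic anhydrase, rose by 0.74 ± 0.12 on its brightest probe (adjusted p = 0.0183; 0.45 and 0.354 with slide as a block) and stood at 0.41 ± 0.12 and 0.23 ± 0.06 on its other 2 without passing. Lgals4, a galectin of epithelia, rose on 2 probes (0.64 ± 0.12 and 0.53 ± 0.07, adjusted p = 0.0495 and 0.0111).

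The probe with the largest change in kidney had no gene name. ILMN_1216322 read 10.62, 9.58 and 9.95 in WT and 13.21, 11.75 and 12.25 in Glo1+/-. Array 1 was the highest of each genotype, and the rise of 2.36 ± 0.30, 5.14-fold, kept its call with slide as a block (adjusted p = 0.00643 without and 0.00694 with it). In WT liver the same probe had a mean of 14.59, and the part of liver RNA in its kidney values was not tested. The hepatocyte list was highest in WT 1 and stood at 8.75, 8.86 and 8.79 in Glo1+/-.

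Of the immediate early genes Egr1 fell, and of the circadian genes Ciart rose. Egr1, a transcription factor induced within minutes by growth signals, read 11.47, 10.77 and 11.00 in WT and 9.74, 9.48 and 9.45 in Glo1+/-. It fell by 1.52 ± 0.15 (adjusted p = 0.00147; -1.34 and 0.0445 with slide as a block), so that WT stood 2.87-fold above Glo1+/-, the largest fall of the kidney calls. It was the only one of 21 measured immediate early genes to pass, beside 0.368% of all measured genes called lower. Fos stood at -0.16 ± 0.06, Jun at -0.17 ± 0.08 and Dusp1 at 0.08 ± 0.17. Bcl6, a transcriptional repressor, read 11.37, 11.39 and 11.24 in WT and 9.43, 10.06 and 10.80 in Glo1+/-. Glo1+/- arrays were spread over more than 1 unit, and Bcl6 fell by 1.23 ± 0.23 (adjusted p = 0.0440; -1.90 and 0.0165 with slide as a block).

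Ciart, a repressor of the clock whose own transcript oscillates, was the only call among 20 measured clock genes, beside 0.490% of all measured genes called higher, and 16 of the 20 had a higher mean (median 0.15). It read 8.50, 8.46 and 8.92 in WT and 9.16, 9.29 and 9.13 in Glo1+/-, a rise of 0.57 ± 0.11 (adjusted p = 0.0441; 0.54 and 0.411 with slide as a block). Its promoter is shown because clock proteins bind the E-box, here CACGTG, in the genes they control. The sequence runs from 250 bases before to 50 after the gene start (RefSeq, GRCm38.p6, chr3:95882179-95882478, minus strand, 5′ to 3′), with its 3 E-boxes in capitals.
Ciart: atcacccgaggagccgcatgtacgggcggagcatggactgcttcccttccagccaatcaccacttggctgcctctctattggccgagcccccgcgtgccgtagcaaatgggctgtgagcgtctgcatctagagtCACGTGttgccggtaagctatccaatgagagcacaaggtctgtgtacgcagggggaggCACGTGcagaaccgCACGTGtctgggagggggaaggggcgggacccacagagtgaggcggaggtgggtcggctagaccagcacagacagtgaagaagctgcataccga
The E-box, which reads the same on both strands, was found in 7.15% of 32851 mouse promoters of this length and in 3 of the 17 measured clock genes with a promoter in the table, the others being Per1 and Tef. A match describes the letters only and is no evidence of binding. Per1, a core clock repressor, rose by 0.44 ± 0.09 on its dimmer probe (adjusted p = 0.0477) and stood at 0.69 ± 0.15 on the brighter one (adjusted p = 0.0857). Dbp, an output factor of the clock, read 12.29, 12.84 and 13.08 in WT and 13.32, 13.31 and 13.42 in Glo1+/- (0.61 ± 0.15, adjusted p = 0.133). Clock, an activator of the loop, stood at -0.37 ± 0.09 (adjusted p = 0.132). WT 3 lay between WT 1 and the Glo1+/- arrays on this list, whose mean level was 9.33, 9.40 and 9.57 in WT against 9.60, 9.61 and 9.59 in Glo1+/-. Of 23 measured glucocorticoid-induced genes 18 had a higher mean (median 0.15). Angptl4 alone was called, beside 0.490% of all measured genes called higher. Tsc22d3, a classical target, stood at 0.83 ± 0.19 (adjusted p = 0.107), and Fkbp5, a receptor chaperone, at 0.47 ± 0.16 (adjusted p = 0.333).

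In the list of the unfolded protein response and ATF4, Pdia3 and Calr, which fold glycoproteins in the endoplasmic reticulum, fell, and the transcription factor Cebpb rose. The list had 31 measured genes, 19 with a lower mean in Glo1+/- (median -0.10; -0.18 with slide as a block). Of them 2 were called lower, beside 0.368% of all measured genes, and 1 higher, beside 0.490%. The groups did not overlap downward in 14, beside 11.6% of all measured genes, and upward in 5, beside 9.55%. The mean level of the 40 list genes on the array overlapped between the genotypes, at 9.85, 9.89 and 9.91 in WT and 9.78, 9.87 and 9.81 in Glo1+/-. Pdia3, a disulphide isomerase that works on glycoproteins, read 13.34, 13.36 and 13.32 in WT and 12.82, 12.86 and 12.90 in Glo1+/-. It fell by 0.48 ± 0.07 (adjusted p = 0.0116; -0.52 and 0.0848 with slide as a block), with arrays of a genotype within 0.1 of each other. Calr, calreticulin, which holds glycoproteins for folding, read 10.25, 9.97 and 9.95 in WT and 9.54, 9.61 and 9.38 in Glo1+/-, and fell by 0.54 ± 0.10 (adjusted p = 0.0430; -0.52 and 0.369). Hsp90b1, the lumenal heat shock protein, read 13.31, 13.08 and 13.43 in WT and 12.54, 12.97 and 12.65 in Glo1+/- (-0.55 ± 0.11, adjusted p = 0.0686). The isomerases Pdia4 (-0.47 ± 0.10) and Pdia6 (-0.43 ± 0.10) did not pass, and the groups of all 3 did not overlap. Hspa5, the central chaperone BiP, was near the floor on this array (8.29 to 8.49) and stood at -0.13 ± 0.06 (adjusted p = 0.496).

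The promoters of Calr, Hsp90b1 and Pdia6 are shown because each holds the ER stress element, CCAAT and CCACG with any 9 bases between them, through which unfolded protein drives chaperone genes. They run from 250 bases before to 50 after the gene start (RefSeq, GRCm38.p6, 5′ to 3′ on the gene's strand), with the fixed letters of the element, on either strand, in capitals: Calr at chr8:84846882-84847181 (minus strand), Hsp90b1 at chr10:86705395-86705694 (minus strand, 2 matches) and Pdia6 at chr12:17266339-17266638 (plus strand).
Calr: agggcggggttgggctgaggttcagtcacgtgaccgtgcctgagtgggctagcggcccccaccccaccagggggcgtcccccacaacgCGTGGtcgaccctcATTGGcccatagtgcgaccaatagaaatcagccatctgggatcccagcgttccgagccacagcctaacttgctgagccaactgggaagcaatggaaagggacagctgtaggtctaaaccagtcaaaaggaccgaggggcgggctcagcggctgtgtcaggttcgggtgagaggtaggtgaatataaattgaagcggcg
Hsp90b1: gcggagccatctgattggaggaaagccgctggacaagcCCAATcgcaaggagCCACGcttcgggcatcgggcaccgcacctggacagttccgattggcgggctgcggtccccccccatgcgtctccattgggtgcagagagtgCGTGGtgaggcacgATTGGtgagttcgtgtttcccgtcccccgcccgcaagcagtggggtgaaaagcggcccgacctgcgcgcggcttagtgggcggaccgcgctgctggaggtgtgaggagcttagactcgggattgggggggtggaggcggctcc
Pdia6: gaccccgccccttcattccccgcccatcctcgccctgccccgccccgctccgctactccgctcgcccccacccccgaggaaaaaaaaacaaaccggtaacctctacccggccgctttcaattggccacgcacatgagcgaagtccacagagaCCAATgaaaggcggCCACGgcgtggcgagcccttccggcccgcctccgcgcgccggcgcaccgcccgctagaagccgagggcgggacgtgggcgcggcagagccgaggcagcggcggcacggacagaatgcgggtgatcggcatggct
On both strands the element was found in 0.119% of 32851 promoters and in 7 of the 29 measured list members with a promoter in the table. These 7 are Hspa5, Calr, Hsp90b1, Pdia6, Dnajc3, Creld2 and Syvn1. Their changes ran from -0.55 to -0.13, and Calr was the only one called. The other called members of the list, Pdia3 (-0.48) and Cebpb (0.51), were not among the 7. The range was not set beside that of members without a match. Matches describe letters, and a missing match says nothing of a factor.

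Some called genes of the endoplasmic reticulum outside the list were picked after their values were seen, without a count of all such genes. Sec61b, of the translocation channel, fell by 0.51 ± 0.09 and 0.47 ± 0.09 on 2 probes (adjusted p = 0.0403 each). Uggt1, which tags misfolded glycoproteins, fell by 0.50 ± 0.10 (adjusted p = 0.0485), and Stt3a, of the oligosaccharyl transferase, by 0.41 ± 0.07 (adjusted p = 0.0368). Reep6, a membrane protein of that compartment, rose by 0.58 ± 0.10 (adjusted p = 0.0325). Stt3a read 9.44, 9.42 and 9.50 in WT and 9.02, 9.07 and 9.05 in Glo1+/-, without overlap. In the other direction Cebpb, a transcription factor of stress and metabolism, rose by 0.51 ± 0.10 (adjusted p = 0.0456). Atf4 stood at 0.23 ± 0.08 (adjusted p = 0.360), Xbp1 at 0.24 ± 0.14 and Ddit3, a factor of cell death under stress, at 0.02 ± 0.08. Eif4ebp3, a repressor of translation, rose by 0.44 ± 0.06 (adjusted p = 0.0115).

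**Figure D4:**
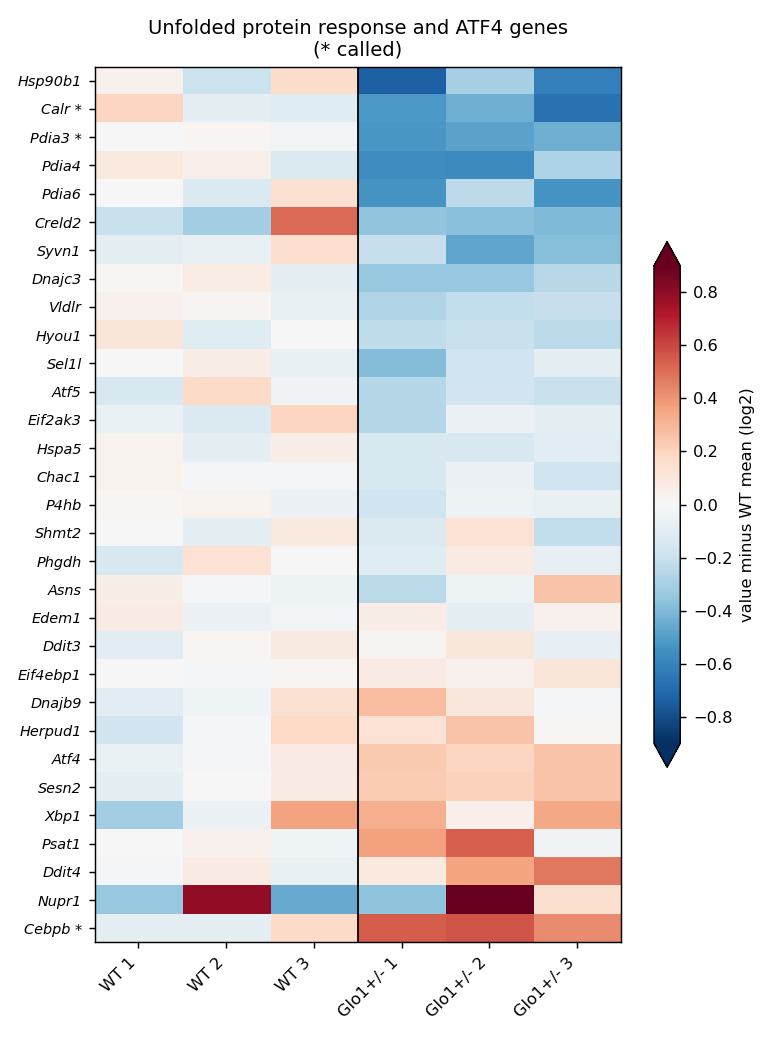
Each row is 1 of the 31 measured genes of the unfolded protein response and ATF4 list and each column 1 kidney array. Colour is the value minus the WT mean of that gene (log2), blue lower and red higher, and a star marks a called gene. The chaperones Hsp90b1, Calr, Pdia3, Pdia4 and Pdia6 are blue in all 3 Glo1+/- arrays, and Cebpb at the foot is red in all 3.

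Transporters and receptors along the nephron gave single calls in both directions, beside 0.490% of all measured genes called higher and 0.368% lower. Of 43 measured proximal tubule genes 1 was called, Slc22a8, an organic anion transporter, from 9.31, 9.21 and 9.45 to 9.80, 9.76 and 9.72 (0.44 ± 0.09, adjusted p = 0.0487; 0.48 and 0.294 with slide as a block). Its relative Slc22a6 stood at -0.18 ± 0.06 (adjusted p = 0.331). Slc8a1, the sodium-calcium exchanger of the distal tubule, read 11.41, 11.19 and 11.46 in WT and 10.60, 10.70 and 10.17 in Glo1+/-, and fell by 0.87 ± 0.13 (adjusted p = 0.0139; -0.76 and 0.279). It was the only call of 15 distal convoluted and connecting tubule genes. Of 12 intercalated cell genes 1 was called, Slc4a1, the anion exchanger AE1 of acid-secreting cells and of erythrocytes (-0.52 ± 0.10, adjusted p = 0.0495). Outside that list Car15, a membrane carbonic anhydrase, fell by 0.57 ± 0.10 (adjusted p = 0.0223). Car15 is in the acid-base and ammonia list, where of 19 measured genes 1 was called higher (Pck1) and 2 lower (Car15 and Slc4a1). The erythroid list, which shares Slc4a1, stood at 9.99 to 10.18 in WT and 9.87 to 10.00 in Glo1+/-. Avpr1a, a vasopressin receptor, fell by 0.64 ± 0.10 (adjusted p = 0.0183; -0.53 and 0.315). In the collecting duct principal cell list 11 of 14 means were lower, with a median of -0.26 (-0.29 with slide as a block) and 0 called. Its arrays overlapped, at 9.81, 10.05 and 9.75 in WT and 9.60, 9.91 and 9.66 in Glo1+/-, with the highest level of each genotype in the arrays numbered 2, which also carried the most urothelial transcripts. Rhbg, an ammonia transporter, stood at -0.38 ± 0.10 and Kcne1, a potassium channel subunit, at -0.37 ± 0.10. The podocyte list had 0 of 15 called (median -0.17) and the thick ascending limb list 0 of 18 (median -0.07). At an unadjusted p under 0.05, 7 collecting duct, 5 podocyte and 2 thick ascending limb genes were lower and 0 higher, beside 9.54% of all probes in either direction.

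Further falls were of membrane proteins and enzymes. Tfrc, the receptor that takes up transferrin iron, read 11.99, 11.58 and 11.59 in WT and 10.62, 10.48 and 10.80 in Glo1+/- on 1 probe and fell by 1.08 ± 0.12 (adjusted p = 0.00514; -1.10 and 0.0557 with slide as a block). The other probe fell by 1.00 ± 0.12 (adjusted p = 0.00559). Itgb6, an integrin subunit of epithelia that activates TGF beta, read 11.74, 11.67 and 11.49 in WT and 10.82, 10.90 and 10.92 in Glo1+/- on the second of its 3 probes by brightness. It fell on all 3 probes, by 0.86 ± 0.10, 0.75 ± 0.09 and 0.75 ± 0.11 (adjusted p = 0.00559, 0.00559 and 0.0138), with -0.75, -0.81 and -0.62 with slide as a block. WT and Glo1+/- were apart by more than the range within either genotype for both genes. Nt5e, which makes adenosine outside the cell, read 12.10, 11.75 and 11.92 in WT and 11.34, 11.22 and 11.06 in Glo1+/-, a fall of 0.72 ± 0.11 (adjusted p = 0.0138). Its dimmer probe stood at -0.40 ± 0.14 (adjusted p = 0.346). Slc29a3, a lysosomal nucleoside transporter, fell by 0.65 ± 0.11 (adjusted p = 0.0223), and Ide, the insulin-degrading enzyme (10.96, 10.82 and 10.96 in WT, 10.29, 10.35 and 10.08 in Glo1+/-), by 0.67 ± 0.10 (adjusted p = 0.0116). Ldc1, annotated here by name only, fell by 0.80 ± 0.13 (adjusted p = 0.0223). Lamp2, a lysosomal membrane protein, fell on 1 of 4 probes (-0.38 ± 0.06, adjusted p = 0.0147), while the others gave -0.28 ± 0.07, -0.01 ± 0.06 and 0.21 ± 0.09.

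Several falls were of genes that other tissues also express. Car3, a carbonic anhydrase abundant in fat, liver and muscle, read 9.60, 9.96 and 10.27 in WT and 8.43, 8.91 and 8.77 in Glo1+/-. It fell by 1.24 ± 0.15 (adjusted p = 0.00559; -1.52 and 0.0233 with slide as a block). The highest Car3 values lay in WT 2 and WT 3, with the most adipocyte transcripts, and the next in WT 1, with the most hepatocyte transcripts. Leaving out single arrays gave -1.41 to -1.08, called each time. Hp, haptoglobin, which binds free haemoglobin, read 9.80, 8.90 and 9.49 in WT and 8.26, 8.30 and 8.21 in Glo1+/-, the latter near the floor. It fell by 1.14 ± 0.16 on the brightest of 3 called probes (adjusted p = 0.0111; -1.14 and 0.173 with slide as a block), and the highest Hp value was in WT 1, with the most hepatocyte transcripts. Serpinf1, a secreted serpin, read 10.17, 9.32 and 9.47 in WT and 8.56, 8.91 and 8.72 in Glo1+/-, and fell by 0.93 ± 0.17 (adjusted p = 0.0403; -1.10 and 0.206), again with WT 1 the highest. Nnmt, which methylates nicotinamide, fell by 0.56 ± 0.09 (adjusted p = 0.0199). In Glo1+/- liver the mean was 13.78 for Car3, 14.82 for Hp, 14.56 for Serpinf1 and 13.52 for Nnmt, and the part of other tissues in these 4 falls was not tested.

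Of the matrix and vascular genes, Col4a1 and Esm1 fell. Of 44 measured genes of the extracellular matrix 36 had a lower mean in Glo1+/- (median -0.08) and 11 did not overlap downward, beside 11.6% of all measured genes. Col4a1, a chain of basement membrane collagen, was the only one called, beside 0.368% of all measured genes called lower, from 11.86, 11.94 and 11.83 to 11.41, 11.22 and 11.36 (-0.55 ± 0.09, adjusted p = 0.0204; -0.47 and 0.294 with slide as a block). Its partner chain Col4a2 stood at -0.35 ± 0.09 (adjusted p = 0.149). Esm1, a proteoglycan of endothelium, was the only call among 26 endothelial genes (-0.51 ± 0.10, adjusted p = 0.0434), beside the same 0.368%. That list had 12 higher and 14 lower means with a median of -0.01. Smooth muscle genes had a lower mean in 13 of 14 (median -0.11) with 0 called, 3 of them lower at an unadjusted p under 0.05. Of the acute phase and complement list 1 of 22 genes was called, Hp, beside the same 0.368%. This list had a median of -0.12, with 7 genes lower and 0 higher at an unadjusted p under 0.05. Other lists of injury, inflammation and respiration had no called member: 0 of 22 tubular injury genes, 0 of 31 interferon genes, 0 of 28 cytokines and chemokines, 0 of 20 macrophage genes and 0 of 70 respiratory chain genes. In those 5 lists the medians lay between -0.12 and 0.07. At an unadjusted p under 0.05 the higher and lower genes numbered 2 and 1, 1 and 4, 0 and 6, 0 and 6, and 1 and 8 in the order given. The share over all probes at that p was 9.54% in either direction.

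**Figure D5:**
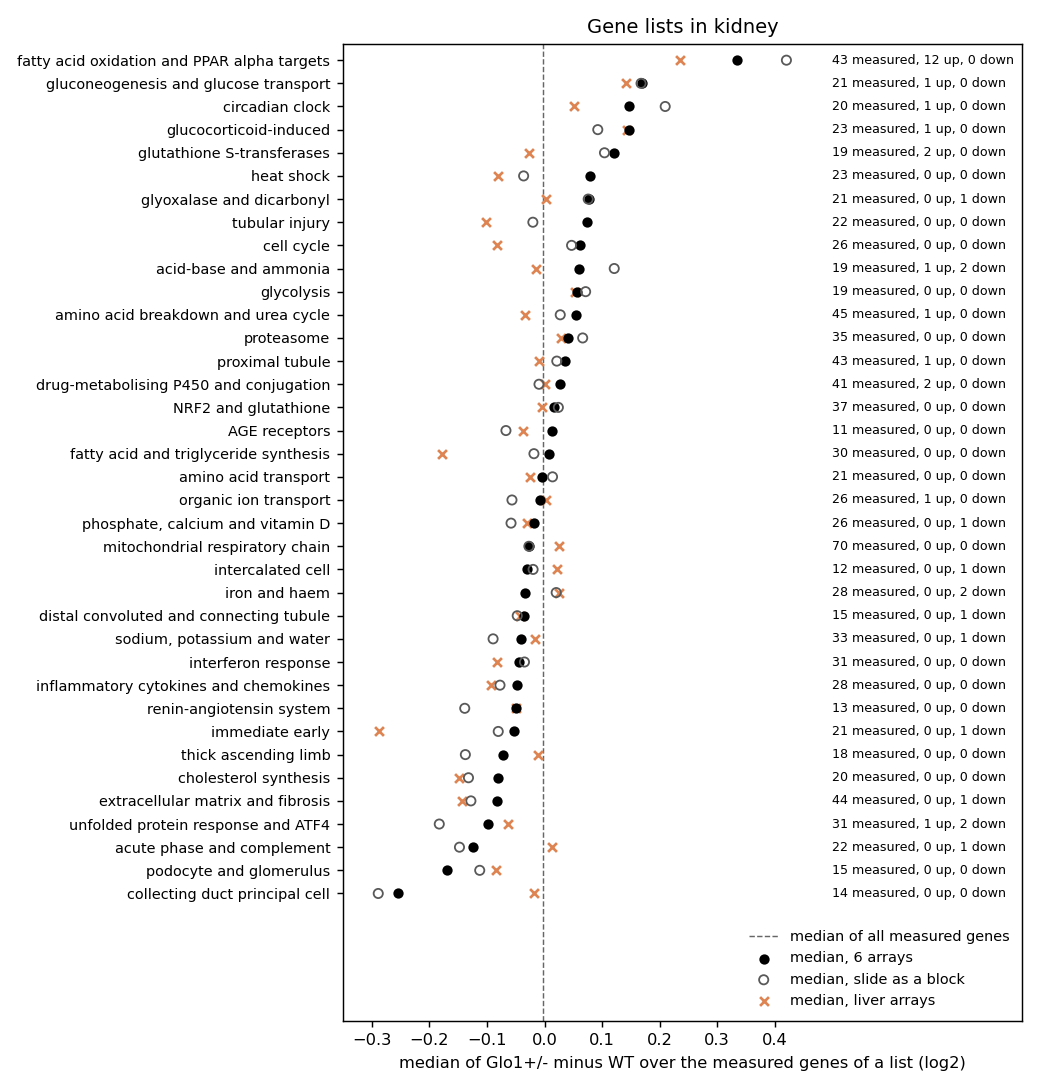
Median difference between Glo1+/- and WT over the measured genes of each list (horizontal axis, log2), for the 6 kidney arrays (filled circles), with slide as a block (open circles) and in the 6 liver arrays (crosses). The dashed line is the median of all measured kidney genes (-0.003), and the text beside each row gives the genes measured and the numbers called. Cell type lists other than the nephron lists, and the lists of sex-biased, X inactivation and Y-linked genes, are left out. Of the 37 lists shown, that of fatty acid oxidation lies farthest to the right, at 0.33, and that of the collecting duct farthest to the left, at -0.26.

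The genotype effect in kidney was set against that in liver, the other metabolic organ with 3 arrays per genotype and no shared arrays. Slides divided the liver genotypes too: WT liver 1 and 2 were on slide 1, and WT liver 3 and the 3 Glo1+/- liver arrays on slide 2, so part of the liver effect cannot be told apart from slide. Of the 98 probes called in kidney 83 had the same sign in liver. Of them 13 were called there in that direction and 0 in the other, among 169 liver calls of 25697 probes. The agreement in sign over all probes was not counted, so the 83 have no share to be set beside. The genes called higher in both were Cyp4a31, Slc25a20, Eci2, Gstt2, Ciart, Eif4ebp3 and Pcsk4. Those called lower in both were Glo1, Col4a1, Ide, Bcl6 and Egr1, with 1 unnamed probe. The fatty acid oxidation list had a median of 0.24 in liver on the kidney probes. The difference between the 2 effects passed at 22 probes, 0.0856% of those tested, 8 more positive and 14 more negative in kidney. Cyp2d12 rose in kidney and stood at -0.09 ± 0.08 in liver, where it lay near the floor (difference 1.02 ± 0.12, adjusted p = 0.00227). Acaa1b rose in kidney and stood at -0.17 in liver (difference 0.70 ± 0.11, adjusted p = 0.0262). Itgb6 (difference -0.83 ± 0.14, adjusted p = 0.0335) and Hp (-1.23 ± 0.21, adjusted p = 0.0304) fell in kidney and stood at -0.03 and 0.09 in liver. Itgb6 lay at the floor in liver (8.16 in WT), where a fall could not be read, and Hp (14.74) and Acaa1b (14.68) lay near the top of the scale there, where a change may be compressed. Pck1 (difference 0.81 ± 0.22, adjusted p = 0.264), Tfrc (-0.96, adjusted p = 0.491) and Cpt2 (0.54, adjusted p = 0.155) had no passing difference between the organs. The count of 22 rose to 233 without WT liver 3, where slide and liver genotype coincide, and to 41 without WT liver 1, and fell to 12 and 14 without Glo1+/- liver 2 and 3, to 7 without WT kidney 2, and to 5 and 4 without Glo1+/- kidney 2 and 3.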

How the data were processed

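Total RNA was measured on 24 Illumina bead arrays, of which 6 are used here for kidney and 6 for liver. The authors deposited 1 log2 value per probe and array, made with lumi 2.32.0 per the submitters' processing notes. How background, transformation and normalization were set is not stated in any label or header, so the scale may be a variance-stabilised one on which changes of dim probes are understated. Kidney values ran from 7.96 to 15.12 with array medians of 8.23 to 8.25, and array pairs correlated at 0.991 to 0.996 across probes. The number of arrays limits the precision, and an exact test of 3 against 3 cannot go below p = 0.1.

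All 25697 probes were tested with limma 3.58.1 in R 4.3.3 (lmFit, eBayes with trend, 2-sided, Benjamini-Hochberg adjustment over all probes, called under 0.05), after tests on simulated data. All adjusted p-values are limma's, and errors after ± are standard errors. Kidney against liver was a contrast over 12 arrays. Gene names come from the platform annotation, of which 23962 gene IDs matched the RefSeq table of GRCm38.p6. Lists (52, with 1277 of 1420 symbols on the array) were read by the brightest probe and described, not tested. The members and lists were chosen with earlier results of these data known. Genes were named by rule: Glo1 and its 30 neighbours, Slc34a1 and Umod; the 15 largest called rises and falls; per list up to 4 called genes, or else 2 of smallest p, and 1 of opposite sign; and the first 8 by the kidney against liver test. Other genes were named after their values were seen. Alternatives were the prior, weights, normalization, filter, slide, replicate number and single arrays.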

Additional observations from a re-analysis of the deposited data

Results flagged for a closer look

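For each result below the genotype effect in kidney differed from that in liver by limma's test of the difference. The value is the kidney effect minus the liver effect on the log2 scale. For probes called in kidney, the difference was 1.02 for Cyp2d12 and -0.83 and -0.69 on 2 probes of Itgb6, both genes near the floor in liver. It was 0.70 for Acaa1b, -1.23 and -0.93 on 2 probes of Hp and 2.34 for the unnamed probe with the largest kidney rise. These read over 14 in liver, near the top of the scale, where a change may be compressed, so their differences are not exact. For probes called in liver and not in kidney, several lay at the floor in kidney, where a change could not be read. These were Gpcpd1, a phosphodiesterase of glycerophosphocholine (-1.19), Nr1i3, the xenobiotic receptor CAR (-1.02), the P450 Cyp2c55 (1.07), the phosphodiesterase Pde6c (-0.57), the fasting hormone Fgf21 (-0.59), Alb (0.68) and 3 probes of the protease Pcsk4 (-0.83, -0.68 and -0.65). Another, brighter Pcsk4 probe was called higher in both organs. Dim in kidney were also Mmd2 (0.71) and Marcksl1 (0.63). Cpsf4l gave -0.85, the respiratory assembly factor Ndufaf4 -0.88 and a second unnamed probe -0.97. Ccnd1, a cyclin, stood at 0.34 in kidney and fell by 0.68 in liver, a difference of 1.03.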

How the results depend on the processing

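The 98 probes called in kidney kept their sign under each alternative in which they were tested. As their groups did not overlap, most alternatives, among them slide and single arrays, could not change the sign. The count of called probes moved. It was 17 without the trend in the prior, 153 with a robust prior, 20 with all 24 arrays in the fit, 20 with slide as a block and 10 within slide 2, and 19 to 108 without single arrays. Array weights gave 122, quantile normalization 113 and only probes above the median 69. The Glo1 change stayed at -0.88 but had an adjusted p of 0.150 without the trend, 0.107 with a robust prior and 0.451 with all 24 arrays. It was -0.96 (adjusted p = 0.206) with slide as a block and -0.96 (0.0370) within slide 2, and -1.09 to -0.71 (0.00500 to 0.0880) without single arrays. Called fatty acid oxidation genes numbered 1 without the trend, 0 with all 24 arrays, 7 with slide as a block, 4 within slide 2, and 2 to 9 without single arrays. The kidney against liver count was 48 with a robust prior, 81 with array weights, 37 with slide as a block and 4 to 233 without single arrays. The cause of these moves was not tested. Leaving out probes over 1 log2 unit brighter in another tissue, chosen after seeing the data, leaves the values of the other probes as they are, so its counts say nothing on stability. Of 52 list medians 12 changed sign with slide as a block.

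Deviations of same-numbered arrays of the genotypes from their group means correlated at 0.065, 0.014 and -0.0075 across probes. Those of differently numbered arrays correlated at -0.047 to 0.042. Whether the numbers pair animals cannot be read from these values, and the labels do not say. With the replicate block 74 probes passed in kidney and 27 in kidney against liver, Glo1 had an adjusted p of 0.0157 and 12 fatty acid oxidation genes were called. Probes near the floor, with medians of 8.23 to 8.25, limit what dim genes such as Ppara and Hspa5 can show.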
